A study of Mus musculus with 120 samples.

Results

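Imprinted genes, which are transcribed mainly from the copy inherited from 1 parent, were followed here through 20 inductions of single genes in mouse embryonic stem (ES) cells. The set held 34 listed symbols, and every probe set annotated to one of them was taken. On the Mouse 430_2 array, 32 of the 34 symbols had 96 probe sets of 45101 in all. On the smaller Mouse 430A_2 array, 28 symbols had 61 probe sets of 22690. Zrsr1 and Dio3 had no probe set on either array, and Mirg, Zdbf2, Kcnq1ot1 and Ppp1r9a had none on Mouse 430A_2.

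The cells were EB3 mouse ES cells in which the coding sequence of a human chromosome 21 gene, or of its mouse counterpart, had been placed at the ROSA26 locus with a 3xFLAG tag under a Tet-off promoter. Tetracycline keeps that promoter silent. Each experiment compared 3 clones kept in tetracycline (uninduced) with the 3 clones of the same gene after its withdrawal (induced), which gave 6 arrays an experiment and 120 arrays in all. Induction lasted 24 h in 15 experiments, 39 h for Hunk, Ripk4 and Sim2, and 48 h for Aire and Pdxk. The other inserted genes were Bach1, Dscr1, Erg, Ets2, Gabpa, Nrip1, Olig1, Pknox1, RIKEN-1810007M14, Dyrk1a, Snf1lk, Pfkl, Olig2, Zfp295 and Runx1. The inserts for Zfp295, Dyrk1a and Snf1lk were human, and clones for Zfp295 and Hunk had been selected with more puromycin. The clones of a gene were picked after nucleofection of its plasmid and share their starting line, so that p-values measure the spread between these clones. Runx1 was hybridised to Mouse 430A_2 (6 arrays) and the other 19 genes to Mouse 430_2. Withdrawal of tetracycline and replating were shared by every induced culture and cannot be told apart from the inserted gene within an experiment.

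Imprinted genes lie mostly in clusters. In each cluster a control region that carries DNA methylation on the maternal or the paternal copy sets which genes of the cluster are expressed from which parent. The methylation is laid down in the germ line and protected after fertilisation by factors such as the zinc finger protein Zfp57 with its partner Trim28. ES cells in culture are known to lose or gain methylation at such regions, and a clone grown from 1 cell passes its state on to its descendants. The arrays read the total transcript of a gene and cannot tell the parental copies apart.

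The promoters of the members were read from the mouse reference (RefSeq, build GRCm38.p6), 250 bases before to 50 bases after each annotated start. Of the members, 29 had 45 such windows. The hexamer TGCCGC, which Zfp57 binds when its CG is methylated, or its reverse complement GCGGCA was in 11 of the 45 windows (24.4%), against 11.6% of the 32851 windows of all genes. The members' windows held a median of 13 CG pairs, and those of all genes 7. A match is a description of these letters and not evidence of binding. Only windows with a match were taken for printing, with the match in capitals. The 5 below are those of 4 of the genes that differed most between clones and of Meg3, whose change on induction was among the largest. A further window of each of Mest, Grb10 and Meg3 held no match. Among the other genes that differed most, Kcnq1ot1, Rian, Phlda2 and Mirg had no match. Igf2 had 1 match in 1 of its windows, and H19 had no window. Mest lies at chr6:30737800-30738099 (plus strand), Nnat at chr2:157559828-157560127 (plus), Grb10 at chr11:12037371-12037670 (minus), Plagl1 at chr10:13090582-13090881 (plus) and Meg3 at chr12:109540746-109541045 (plus).
Mest: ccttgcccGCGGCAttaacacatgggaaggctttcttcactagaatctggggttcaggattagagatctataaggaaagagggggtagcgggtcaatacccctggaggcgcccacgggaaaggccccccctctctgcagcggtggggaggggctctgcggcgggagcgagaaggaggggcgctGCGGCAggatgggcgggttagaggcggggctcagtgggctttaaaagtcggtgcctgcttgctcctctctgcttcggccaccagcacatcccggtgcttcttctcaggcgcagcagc
Nnat: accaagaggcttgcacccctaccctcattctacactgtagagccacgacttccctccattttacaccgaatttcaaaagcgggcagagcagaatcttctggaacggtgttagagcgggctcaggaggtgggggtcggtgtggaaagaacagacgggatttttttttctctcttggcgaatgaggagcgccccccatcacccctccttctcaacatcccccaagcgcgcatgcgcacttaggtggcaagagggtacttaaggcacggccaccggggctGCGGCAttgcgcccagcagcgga
Grb10: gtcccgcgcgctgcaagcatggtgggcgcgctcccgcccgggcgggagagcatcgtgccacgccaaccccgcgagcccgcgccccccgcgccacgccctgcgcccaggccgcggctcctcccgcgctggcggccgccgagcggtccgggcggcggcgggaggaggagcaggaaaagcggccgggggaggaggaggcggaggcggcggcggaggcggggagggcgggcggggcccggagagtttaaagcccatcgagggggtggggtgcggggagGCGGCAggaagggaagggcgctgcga
Plagl1: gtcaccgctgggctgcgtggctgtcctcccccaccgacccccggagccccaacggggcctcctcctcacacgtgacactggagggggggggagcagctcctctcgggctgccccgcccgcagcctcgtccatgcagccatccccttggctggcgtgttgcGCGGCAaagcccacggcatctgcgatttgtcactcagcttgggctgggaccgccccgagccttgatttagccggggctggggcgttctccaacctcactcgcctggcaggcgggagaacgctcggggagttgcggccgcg
Meg3: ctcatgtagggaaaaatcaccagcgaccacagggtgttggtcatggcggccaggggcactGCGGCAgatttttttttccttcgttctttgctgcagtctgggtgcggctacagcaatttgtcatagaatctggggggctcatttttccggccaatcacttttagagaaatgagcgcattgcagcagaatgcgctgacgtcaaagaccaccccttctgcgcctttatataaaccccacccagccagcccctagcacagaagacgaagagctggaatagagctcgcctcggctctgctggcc

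Levels are the authors' log2 intensities, and since each experiment was normalized apart they are compared only within an experiment. The markers of ES cells lay high, with 11 of 12 probe sets in the highest of 4 equal classes of mean uninduced level over the Mouse 430_2 probe sets. Of the 13 probe sets of fibroblast (feeder) markers, 0 lay there and 6 lay in the lowest class. The replicate numbers joined arrays of a clone: deviations from the group mean correlated above 0.1 in 54 of 60 clones (median 0.38). Eif2s3y, a Y-linked gene that some ES clones lose and that was looked at after its values were seen, went against the numbers in the Gabpa experiment. It was at 6.39 and 5.83 in uninduced clones 1 and 3 and at 9.08 and 8.50 in the induced arrays of the same numbers, while in the other 58 clones both arrays lay within 0.64. The libraries labelled Gabpa clones 1 and 3 thus go against their shared numbers, and values of that experiment are given with this limit. Markers of primitive endoderm stood high in clone 1 of the Ets2, Olig1 and Pknox1 experiments, on average 1.46, 1.19 and 1.41 above the mean of the 3 clones over 22 probe sets. The array's own probe sets for the induced gene were higher in all 3 clones in 5 of 20 experiments (Dscr1, Dyrk1a, Pdxk, Ripk4 and Runx1), but probes outside the inserted coding sequence check nothing.

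The first question was how far clones of 1 gene differed from each other, over both states together and then in the uninduced arrays alone. With both arrays of each clone in a fit of the Mouse 430_2 arrays (limma, F-test between clones within experiments, adjusted over all probe sets), 58 of the 96 imprinted probe sets differed between clones, or 60.4%. Of all 45100 probe sets tested, 39.8% did. The median clone SD of the imprinted probe sets was 0.13 on the log2 scale, against 0.07 for all probe sets. A list of other imprinted genes, outside the 34 symbols, did not share this: 17 of its 53 probe sets passed (32.1%, median clone SD 0.07). The larger share thus holds for the listed symbols and not for imprinted genes in general. By class of mean uninduced level, in the class below the highest 26 of 30 imprinted probe sets passed (86.7%, against 55.5% of all), and in the highest class 21 of 23 (91.3%, against 73.4%). In the class below these 8 of 22 passed (36.4%, against 22%), and in the lowest 3 of 21 (14.3%, against 8.18%). Of the 32 genes, 27 had at least 1 such probe set, and Asb4, Dcn, Peg10, Usp29 and Zim1 had none. The probe sets of Asb4, Nap1l5, Peg12 and Usp29 were all in the lowest class.

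**Figure D1:**
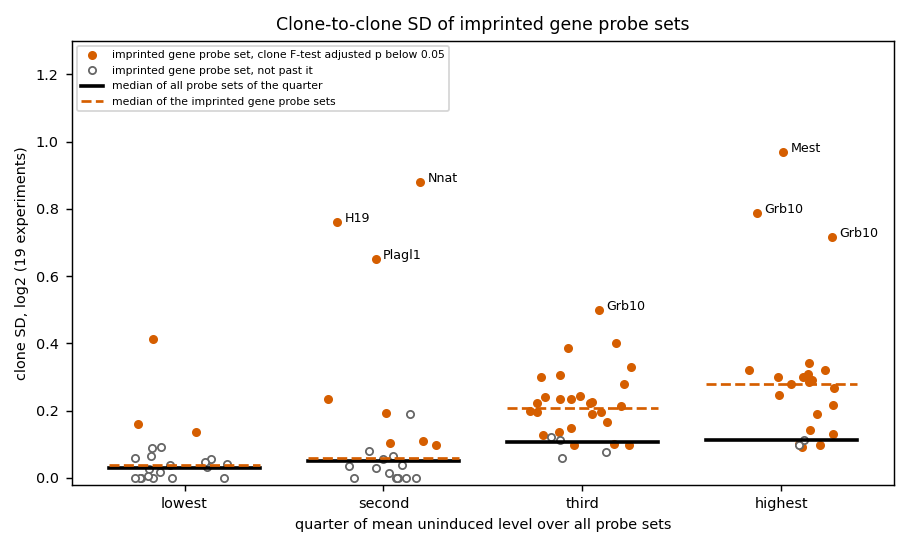
Clone-to-clone SD (log2, vertical axis) of each imprinted probe set in the 19 experiments on Mouse 430_2, by class of mean uninduced level, 4 classes from lowest to highest, over all probe sets (horizontal axis). Filled points passed the F-test between clones and open points did not, and lines give the medians of all probe sets and of the imprinted ones. Mest (0.97), Nnat (0.88), Grb10 (0.79), H19 (0.76) and Plagl1 (0.65) lie highest.

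Before induction, the SD of the 3 clones had a median of 0.173 over the imprinted probe sets and of 0.121 over all, each taken over the 19 experiments. By experiment, the imprinted median ran from 0.123 (Olig2) to 0.247 (Olig1). In the fit of both states, the 10 genes with the largest clone SD were Mest, Nnat, Grb10, H19, Plagl1, Kcnq1ot1 (0.41), Igf2 (0.40), Rian (0.39), Phlda2 (0.34) and Mirg (0.33). Of the imprinted probe sets, 7 were among the top 1% of all probe sets by clone SD and 24 among the top 5%.

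Single clones stood far from the others at some of these genes. A clone was called apart at a probe set where it lay at least 1 log2 unit from both other clones, on the same side, uninduced and induced, a rule set after the values were seen. By that rule 41 of 5472 pairs of an imprinted probe set and a clone were apart (0.749%), against 0.111% of all 2570754 pairs. In 26 the clone was higher and in 15 lower. They fell on 11 genes, which include 9 of the 10 with the largest clone SD (not Rian), and on 12 of 57 clones in 10 experiments, and in the Runx1 experiment there was none. Without the 3 clones with raised endoderm markers, there were 36, and 1740 over all probe sets.

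Mest encodes a protein of the alpha/beta hydrolase fold and is expressed from the paternal copy. In the Ets2 experiment it was at 4.67, 4.21 and 9.71 in uninduced clones 1, 2 and 3, and at 4.77, 4.48 and 9.91 after induction. Clone 3 was thus at least 32.8-fold above the nearer of the other clones. The low clones lay below that experiment's median uninduced level (5.12) and no detection call was used, so a fold against clones that dim is given as a lower bound. In the Erg experiment uninduced clones read 10.38, 5.65 and 10.25 and induced clones 10.67, 5.80 and 10.69, so that clone 2 was 24.3-fold below the nearer clone. In both experiments the clone that stood apart did so in both states. In the other 17 experiments on this array the 3 uninduced clones lay within 0.94 of each other, at 9.14 to 11.14. Ets2 clone 3 read inside that range and Ets2 clones 1 and 2 below it, though each experiment was normalized apart. Clone 3 was thus apart from 2 low clones and not itself unusually high.

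Grb10, an adaptor that binds the insulin and IGF1 receptors and limits growth, stood low in single clones of 4 experiments. Its probe set 1425458_a_at read 10.33, 6.47 and 10.71 in the uninduced Bach1 clones, and clone 2 was 14.5-fold below the nearer of the others. In the Olig1 experiment it read 10.66, 11.01 and 7.95 (clone 3 was 6.5-fold lower). In the Dyrk1a experiment clone 1 was at 8.70 beside 10.88 and 10.94, and in the Ets2 experiment clone 1 was at 9.41 beside 10.95 and 10.82. A second probe set, 1425457_a_at, stood low in the same 4 clones, and the remaining one, 1430164_a_at, in 3 of them (not in Ets2 clone 1).

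H19, a maternally expressed long noncoding RNA that also holds the hairpin of miR-675, had 1 probe set, annotated to Mir675 and H19 together. It read 4.18, 3.65 and 8.41 in the uninduced Olig1 clones, and clone 3 was at least 18.8-fold above the nearer clone. In the Ets2 experiment clone 1 was at 6.34 beside 4.06 and 4.46, and in the Pknox1 experiment clone 1 was at 5.88 beside 4.03 and 4.14. These last 2 clones are among the 3 with raised endoderm markers, whose part in the H19 level was not tested. The third of them, Olig1 clone 1, had H19 at 4.18, and Olig1 clone 3 lay 0.31 below its experiment's mean for the endoderm markers.

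Nnat encodes neuronatin, a small membrane protein, from the paternal copy. It was apart in 6 clones of 5 experiments: Olig1 clone 3 was at 7.46 beside 3.49 and 3.57, at least 14.8-fold higher. Snf1lk clone 1 was at 7.23 beside 4.40 and 4.89, Bach1 clone 2 at 6.59 beside 4.85 and 4.09, and Olig2 clone 1 at 6.50 beside 4.96 and 4.81. The 3 Dyrk1a clones were spread out, at 7.63, 6.07 and 4.58. In 5 of the 6 the clone was the highest of its experiment, and Dyrk1a clone 3 was the lowest.

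Plagl1, a paternally expressed zinc finger transcription factor known to act on other imprinted genes, read 3.72, 4.32 and 7.15 in the Olig1 clones and 7.17, 4.03 and 4.05 in the Dyrk1a clones (probe set 1426208_x_at). The high clone was at least 7.13-fold and 8.70-fold above the nearer of the others. Both were also low in Grb10 and high in Nnat. The other 2 Plagl1 probe sets did not pass the F-test between clones.

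**Figure D2:**
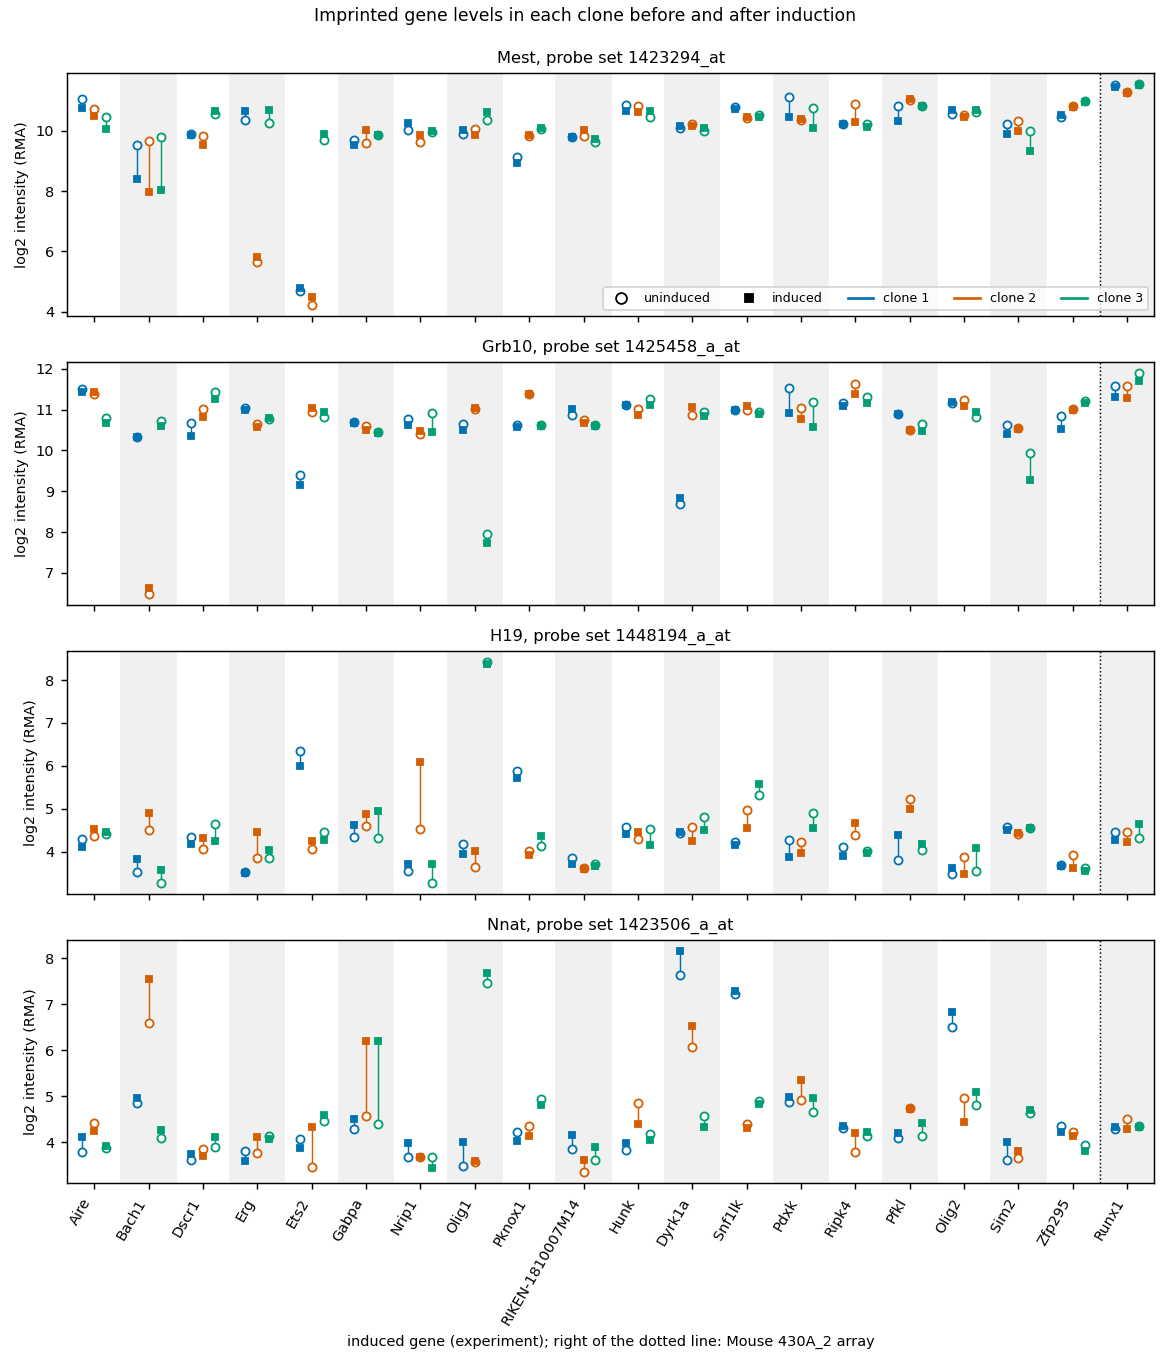
Levels (log2 intensity, vertical axes) of Mest, Grb10, H19 and Nnat in each clone before (circles) and after (squares) induction, with a line joining the 2 arrays of a clone, for the 20 experiments (horizontal axis). Single clones stand far from the others in both states, such as Erg clone 2 for Mest and Olig1 clone 3 for Grb10, H19 and Nnat. In the Ets2 experiment Mest is low in the clones other than clone 3.

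Olig1 clone 3 held 14 of the 41 apart pairs, and 14 of the 30 probe sets at which that clone was apart over the whole array. H19, Plagl1, Nnat, Meg3 (3 probe sets), Mirg (2) and Kcnq1ot1 (2) were higher in it, and Grb10 (3) and Phlda2 were lower. Phlda2, a maternally expressed gene that limits placental growth, read 10.77, 10.48 and 9.41. Kcnq1ot1, the paternal noncoding RNA of the same cluster, read 4.15, 4.45 and 6.32. In Dyrk1a clone 1, 7 of the 18 apart probe sets were imprinted ones: Peg3 (2 probe sets), Plagl1 and Nnat were higher and Grb10 (3) was lower. In Bach1 clone 2 they were 4 of 6. Over the 12 clones, regulators of imprints, such as DNA methyltransferases and Zfp57, were apart at 1 probe set, in Ets2 clone 1. Zfp57 itself did not pass the F-test between clones (clone SD 0.17, adjusted p 0.27). Many regulators did: 41 of their 75 probe sets passed it (54.7%, median clone SD 0.13), against 39.8% of all probe sets. Of the 75, 46 lay in the highest level class.

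Other clones were apart at many probe sets, of which few were imprinted. Ets2 clone 1, with its raised endoderm markers, was apart at 780 probe sets, among them those of H19, Igf2 and Grb10 (2). Igf2, the paternally expressed fetal growth factor, was at 9.16 there beside 7.48 and 7.41. Dscr1 clone 3 was apart at 181, of which 5 were imprinted: the maternal RNAs Meg3 (4 probe sets) and Mirg. Meg3 1439380_x_at was at 10.83 in it beside 9.55 and 9.48. Erg clone 2, with its low Mest, was apart at 21 probe sets. Ets2 clone 3, whose Mest stood above 2 low clones, was apart at 2. In Pdxk clone 2, apart at 3 probe sets, Kcnq1ot1 1457781_at was low (4.86 beside 6.04 and 5.99).

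**Figure D3:**
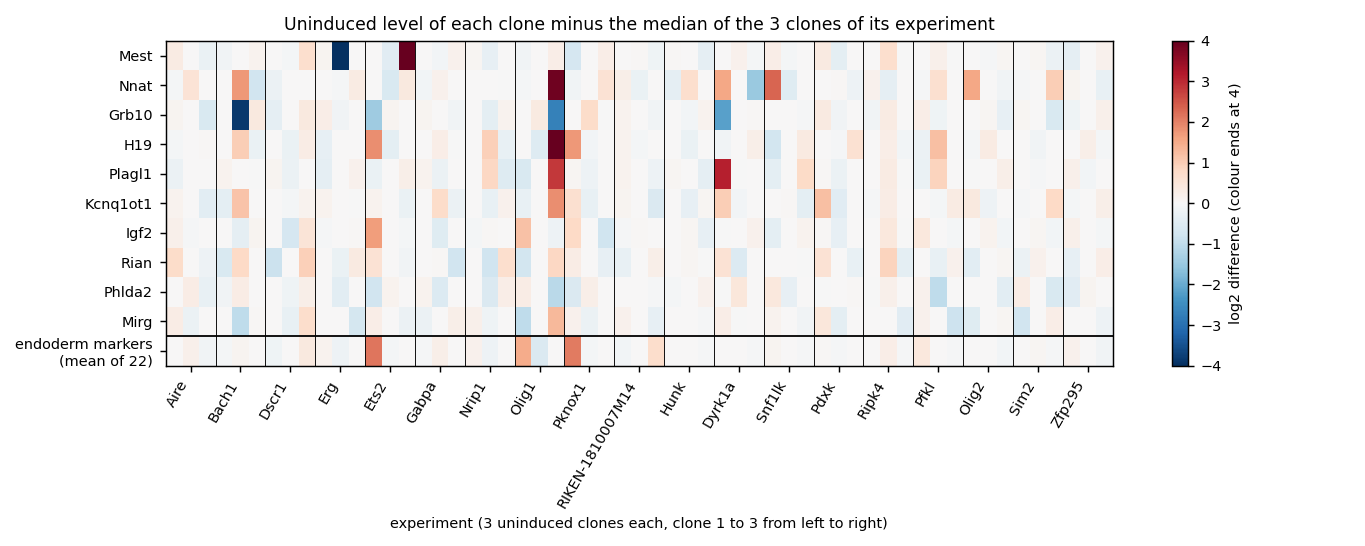
Uninduced level of each clone minus the median of the 3 clones of its experiment (colour, log2, ending at 4 either way) for the 10 imprinted genes with the largest clone SD and for the mean of 22 endoderm marker probe sets. Columns are the 57 clones of 19 experiments. Olig1 clone 3 departs at most of the genes, while the raised endoderm markers are in Ets2, Olig1 and Pknox1 clone 1.

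Whether neighbours in a cluster rose and fell together from clone to clone was tested for 12 pairs of genes over the 57 uninduced clones, each as a deviation from its experiment's mean (100000 permutations within experiments, two-sided, Benjamini-Hochberg over the 12 pairs). The 3 noncoding RNAs of the Dlk1-Dio3 cluster went together: r was 0.75 for Meg3 and Mirg (rho 0.50), 0.54 for Meg3 and Rian (rho 0.43) and 0.56 for Rian and Mirg (rho 0.51), each with a permutation p of 0.018 after adjustment for r. The adjusted permutation p for rho was 0.023, 0.023 and 0.0077. Each gene was taken by its probe set with the highest mean, for Rian 1452899_at. That probe set did not itself differ between clones (clone SD 0.10, F-test adjusted p 0.36). The larger clone SD given above for Rian (0.39) was that of 1428055_at. In the induced arrays r for Meg3 and Rian was 0.23 (adjusted permutation p 0.23). Phlda2 and Kcnq1ot1 went opposite ways (r −0.45, adjusted permutation p 0.045; rho −0.32, adjusted p 0.13).

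Of these 4 relations, 3 no longer passed without the 2 clones farthest in the gene named first. Without Olig1 clone 3 and Dscr1 clone 3, r was 0.57 for Meg3 and Mirg (adjusted permutation p 0.13) and 0.40 for Meg3 and Rian (adjusted p 0.11). Without Dscr1 clones 1 and 3, r for Rian and Mirg was still past the threshold, at 0.46 (adjusted permutation p 0.015). Without Olig1 clone 3 and Pfkl clone 2, r for Phlda2 and Kcnq1ot1 was −0.31 (adjusted p 0.22). The other 8 pairs did not pass on r, among them Meg3 with Dlk1 (r 0.41, adjusted permutation p 0.11), H19 with Igf2 (r 0.17, adjusted p 0.75), H19 with Meg3 (r 0.54, adjusted p 0.088), Snrpn with Ndn (r −0.38, adjusted p 0.088) and Peg10 with Sgce (r −0.02, adjusted p 0.92).

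The second question was which imprinted genes moved when the inserted gene was turned on. Induced and uninduced arrays were compared within clones in each experiment (limma with the clone as a block, Benjamini-Hochberg over all probe sets of the array). Over the 20 experiments 44 values of 15 genes passed at an adjusted p of 0.05, 21 upward and 23 downward, and all 44 went the same way in the 3 clones. They came from 5 experiments: Runx1 (21 of 61 imprinted probe sets), Erg (15 of 96), Olig2 (5), Aire (2) and Sim2 (1). Of all probe sets of the array, 16.2% passed in the Runx1 experiment (8.51% rose and 7.65% fell), 12% in the Erg experiment (5.71% rose and 6.28% fell), 1.76% with Olig2 (0.825% rose), 3.93% with Aire (2.45% rose) and 0.914% with Sim2 (0.643% rose).

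In the other 15 experiments no imprinted probe set passed, and 2 to 28 of the 96 had an unadjusted limma p under 0.05. Of all probe sets, 0.264% passed with Pdxk, 0.135% with Nrip1, 0.0177% with Ripk4, 0.00665% with Hunk and 0.00222% with Bach1. For Dscr1, Ets2, Gabpa, Olig1, Pknox1, RIKEN-1810007M14, Dyrk1a, Snf1lk, Pfkl and Zfp295 that share was 0%.

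**Figure D4:**
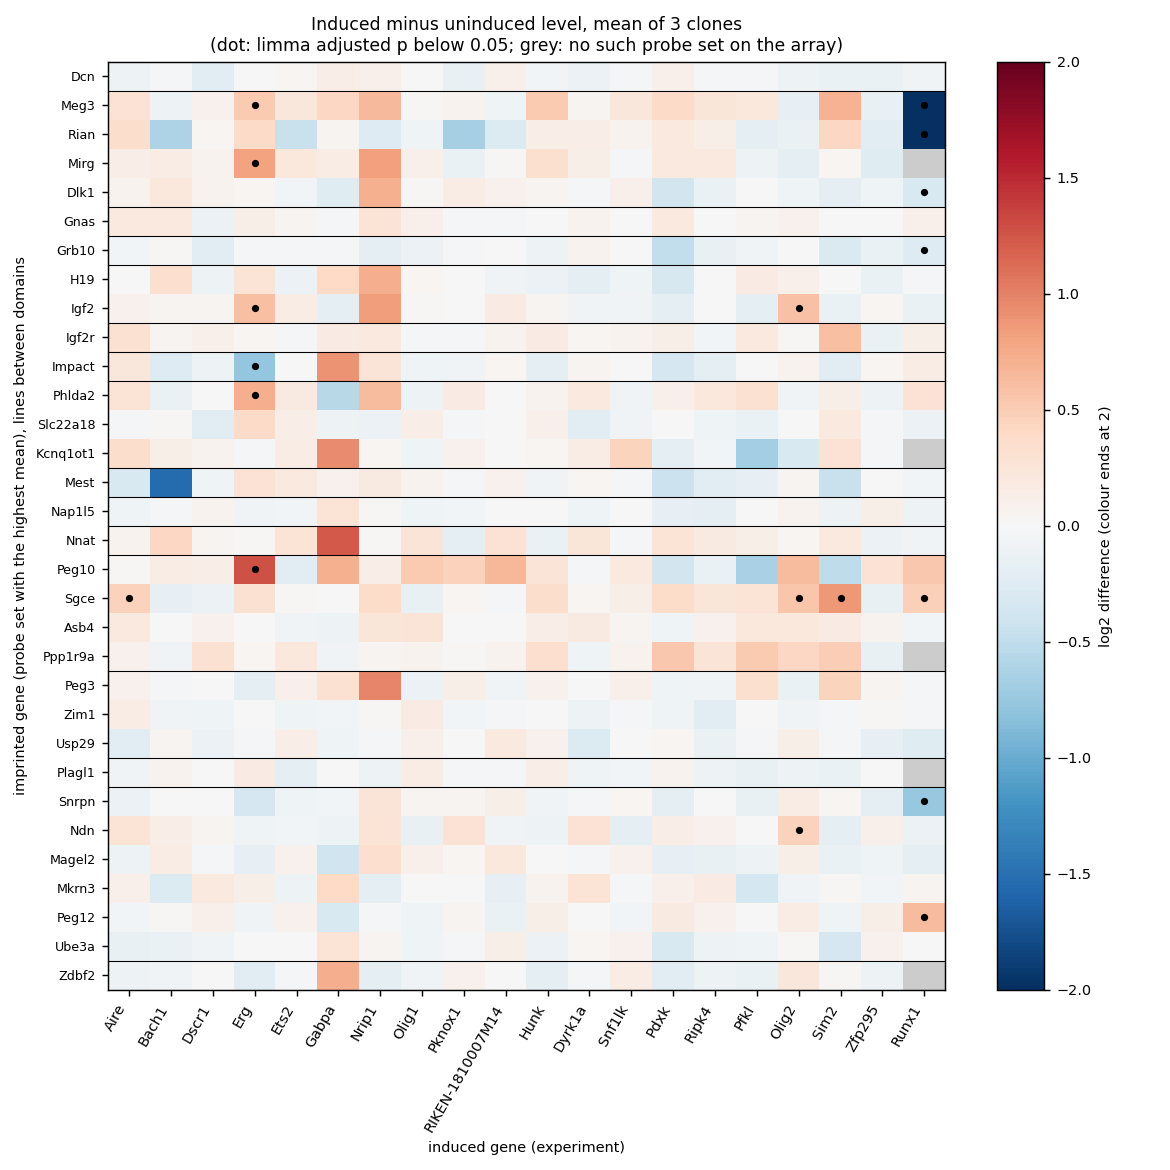
Induced minus uninduced level (colour, log2, mean of 3 clones, ending at 2 either way) of each imprinted gene (rows, by the probe set with the highest mean, grouped by cluster) in the 20 experiments (columns). Dots mark a limma adjusted p below 0.05, and grey marks a probe set that Mouse 430A_2 lacks. The darkest cells are Meg3 and Rian in the Runx1 experiment.

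The Dlk1-Dio3 cluster on chromosome 12 holds the noncoding RNAs Meg3, Rian and Mirg, made from the maternal copy, and the paternally expressed Dlk1, a membrane protein of the Notch ligand family. On Runx1 induction all 3 Rian probe sets fell, by 2.20 to 2.46 on the log2 scale, and all 5 Meg3 probe sets fell, by 0.44 to 2.03. Rian 1452899_at was at 10.37, 10.12 and 10.43 in the uninduced clones and at 8.55, 7.76 and 8.01 in the induced ones (adjusted p 0.00058, 4.59-fold). Meg3 1439380_x_at was at 11.49, 11.01 and 11.45 before and at 9.47, 8.98 and 9.41 after induction (adjusted p 0.00014, 4.10-fold). The groups did not overlap for these 8 probe sets. Dlk1 fell by 0.30 (SE 0.06, adjusted p 0.024) with overlapping groups, and this call was lost without clone 1 or clone 2. The dim Meg3 probe set 1436057_at, the smallest fall of the 5, lost its call without any 1 clone. Mirg is not on this array.

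On Erg induction the same cluster moved the other way. Mirg rose at both probe sets, from 6.04, 6.01 and 5.30 to 7.29, 6.96 and 6.59 at 1440097_at (difference 1.16, SE 0.10, adjusted p 0.00036) and by 0.81 at 1457030_at. Meg3 rose at 5 of 11 probe sets, by 0.53 to 1.11. The largest of these, 1436713_s_at, went from 7.57, 7.89 and 7.25 to 8.85, 8.63 and 8.56 (adjusted p 0.0013). The other 6 Meg3 probe sets had differences of 0.06 to 0.32 and did not pass. Nor did the 4 Rian probe sets (differences 0.22 to 0.85, lowest adjusted p 0.084) or Dlk1 (0.03, adjusted p 0.92). The Meg3 call at 1452905_at was lost without clone 3. The Runx1 and Erg responses were measured on different arrays, and their difference was not tested.

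In the Nrip1 experiment these genes had the lowest adjusted p-values among the imprinted ones without passing. Dlk1 was at 5.70, 5.42 and 5.71 before and at 6.37, 6.24 and 6.37 after induction (difference 0.72, SE 0.09, limma adjusted p 0.054), with no overlap of the groups. Meg3 1426758_s_at differed by 0.66 (adjusted p 0.055) and Mirg by 0.65 and 0.83 (adjusted p 0.056 and 0.084). Rian 1428055_at had clone differences of both signs.

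**Figure D5:**
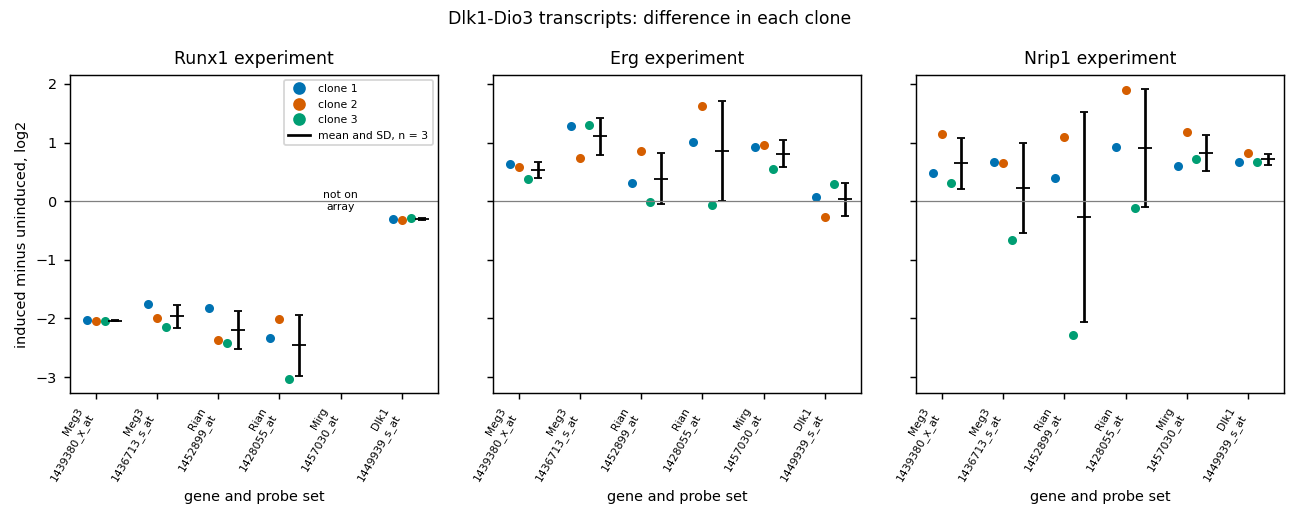
Induced minus uninduced level (log2, vertical axis) in each clone for probe sets of Meg3, Rian, Mirg and Dlk1 in the Runx1, Erg and Nrip1 experiments, with the mean and SD of 3 clones. Meg3 and Rian lie near −2 in all 3 Runx1 clones, and the Rian probe sets scatter in the Erg and Nrip1 clones.

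The Snrpn-Ndn cluster on chromosome 7, the counterpart of the human region of Prader-Willi and Angelman syndromes, holds the paternally expressed Snrpn (a core protein of splicing particles), Ndn, Magel2, Mkrn3 and Peg12, and Ube3a, a ubiquitin ligase that is maternal in neurons. All 5 Snrpn probe sets on Mouse 430A_2 fell on Runx1 induction, by 0.63 to 1.26. Snrpn 1421063_s_at went from 11.45, 11.52 and 11.36 to 10.31, 10.46 and 9.78 (SE 0.11, adjusted p 0.0019). In the Erg experiment 2 of 7 fell, by 0.46 and 0.55. Both lost the call without clone 3, and 1421063_s_at also without clone 1. Most Snrpn probe sets are annotated to Snurf and Snrpn, which share a transcript, and cannot be told apart.

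Ndn, which encodes the growth suppressor necdin, rose on Olig2 induction at 3 of 8 probe sets, by 0.46 to 0.62. Ndn 1415923_at was at 6.91, 6.60 and 7.31 before and at 7.38, 7.40 and 7.88 after induction (SE 0.08, adjusted p 0.018). All 3 calls were lost without clone 1 or clone 2, and at most 1 was kept without clone 3. At 1435383_x_at the groups overlapped. With Aire, Ndn 1435382_at rose by 0.33 (SE 0.07, adjusted p 0.041), a call lost without any 1 clone. Peg12, whose protein binds the kinase Gsk3, rose with Runx1 from 3.83, 3.72 and 3.81 to 4.14, 4.76 and 4.36 (SE 0.14, adjusted p 0.035), low levels for that array, and the call was lost without clone 2 or clone 3. Magel2, Mkrn3 and Ube3a passed in no experiment.

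In the Peg10-Sgce cluster on chromosome 6, Sgce, which encodes epsilon-sarcoglycan from the paternal copy, rose in 4 experiments at 1420688_a_at, more experiments than any other of the listed members. The rises were 0.86 with Sim2 (SE 0.13, adjusted p 0.048), 0.55 with Olig2 (SE 0.07, adjusted p 0.015), 0.48 with Runx1 (SE 0.06, adjusted p 0.0060) and 0.46 with Aire (SE 0.10, adjusted p 0.038). With Sim2 it went from 6.07, 5.84 and 5.96 to 7.12, 6.85 and 6.48, and in all 4 experiments the groups did not overlap. The Runx1 call held without each clone. The Olig2 call was lost without any 1 clone, the Sim2 call without clone 1 or 2 and the Aire call without clone 1 or 3. A second Sgce probe set, 1443518_at, is on Mouse 430_2 only and lay in the lowest level class. It did not pass, with differences of 0.01 with Sim2, 0.05 with Olig2 and 0.10 with Aire.

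Its neighbour Peg10, a paternally expressed gene derived from a retrotransposon, rose with Erg from 4.03, 3.85 and 3.77 to 6.23, 4.87 and 4.35 (difference 1.27, SE 0.26, adjusted p 0.018). Clone 1 rose most. Asb4 and Ppp1r9a passed in no experiment, and the highest Ppp1r9a difference at 1440285_at was 0.53 (Pdxk).

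The chromosome 7 region with Igf2, H19 and the Kcnq1 cluster moved mainly with Erg. Phlda2 rose from 11.24, 10.79 and 11.22 to 11.84, 11.73 and 11.89 (difference 0.73, SE 0.09, adjusted p 0.0024). Slc22a18, a transporter expressed from the maternal copy, rose by 0.56 at 1417809_at (adjusted p 0.0061). Igf2 1448152_at rose by 0.60 with Erg (SE 0.10, adjusted p 0.0070) and by 0.59 with Olig2 (SE 0.10, adjusted p 0.037). With Olig2 it went from 6.38, 6.52 and 6.29 to 6.91, 6.89 and 7.14, with no overlap, and the call was lost without clone 1 or clone 3. H19 passed nowhere. In the Nrip1 experiment H19 was at 6.09 in induced clone 2, against 4.52 before, while the other clones stayed between 3.27 and 3.71 in both states. Kcnq1ot1 1442029_at was at 3.80, 4.54 and 3.56 before and at 5.37, 6.10 and 5.44 after Gabpa induction (difference 1.67, adjusted p 0.18), in the experiment where 2 clones go against their numbers.

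Single genes elsewhere moved as follows. Impact, a paternally expressed inhibitor of the kinase Gcn2, fell with Erg at 1415911_at from 9.31, 9.28 and 9.42 to 8.45, 8.68 and 8.56 (SE 0.09, adjusted p 0.0015). Grb10 fell with Runx1 at its 3 probe sets, by 0.25 to 0.52, and each of these calls was lost without clone 3. Its 3 probe sets were 0.49 to 0.52 lower with Pdxk and did not pass (adjusted p 0.073 to 0.095). Gnas, the complex locus of the stimulatory G protein, fell at 2 of 4 probe sets with Runx1 (by 0.40 and 0.57) and at 1 of 5 with Erg (by 0.42). At 1427789_s_at the Gnas calls were lost without clone 1 or clone 3 in both experiments. The brightest Gnas probe set, 1450186_s_at, differed by 0.10 with Runx1 (adjusted p 0.39).

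Mest did not pass in any experiment. In the Bach1 experiment it was at 9.54, 9.67 and 9.81 before and at 8.41, 7.97 and 8.03 after induction, lower in all 3 clones without overlap (difference −1.54, SE 0.14, limma adjusted p 0.24). In that experiment 1 probe set of 45101 passed. Without Bach1 clone 1, 1 imprinted probe set passed (0.0111% of all). Dcn, Igf2r, Magel2, Mkrn3, Nap1l5, Nnat, Peg3, Plagl1, Usp29, Zdbf2 and Zim1 passed in no experiment either.

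Markers of other states moved in the same experiments. Of the ES cell marker probe sets, 5 of 9 fell with Runx1, 5 of 12 with Erg and 1 of 12 with Olig2. Primitive endoderm markers fell at 2 of 18 probe sets with Runx1 and at 1 of 22 with Aire, and rose at 1 of 22 with Erg and 1 of 22 with Olig2. Fibroblast markers rose at 2 of 13 probe sets with Erg and at 1 of 13 with each of Aire, Olig2 and Sim2, and with Runx1 1 of 12 fell. Of the 7 mesoderm probe sets, 2 rose and 1 fell with Runx1, 1 rose with Erg and 1 fell with Aire. Neural progenitor markers rose at 2 and fell at 1 of 11 probe sets with Runx1, with Erg 1 of 12 rose and 1 fell, with Aire 3 of 12 fell and with Sim2 1 of 12 fell. Trophoblast markers rose at 1 of 8 probe sets with Runx1 and with Sim2 and fell at 1 with Aire. The part of these changes in the imprinted genes' changes was not tested. In bulk cultures, fewer cells of a type and less RNA per cell cannot be told apart.

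Without 1 clone, the number of imprinted probe sets that passed was 15 to 18 with Runx1 (2156 to 2808 of all probe sets passed) and 12 to 19 with Erg (5.34% to 10.9% of all). It was 0 without Olig2 clone 1, 1 without clone 2 and 2 without clone 3 (0.0621%, 0.627% and 0.953% of all). With Aire it was 7 without clone 1 (4.42% of all probe sets passed) and 0 without clone 3 (0.244% of all). With Sim2 it was 0 without clone 2 (0% of all) and 3 without clone 3 (2.43% of all). Without the clone as a block, no imprinted probe set passed with Aire, Olig2 or Sim2. By the unpaired t-test named in the study's methods, with Benjamini-Hochberg adjustment, 37 of the 44 calls were lost, and the 7 that stayed were with Runx1. The study's results name a Bayesian t-test (Cyber-t), which was not run here.

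Across the 19 experiments on Mouse 430_2, the mean response shared by all inductions passed for 0 of the 96 imprinted probe sets (limma on the 19 experiment means; 24 had an unadjusted p under 0.05, as did 6055 of all 45100). Of all probe sets, 0.0554% passed. The imprinted means ran from −0.27 to 0.26, and the lowest adjusted p was 0.081. Taking the 57 clone differences as separate values, 16 passed.

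The response of 30 of the 96 imprinted probe sets differed between experiments (31.3%; limma F-test over the 19 experiments), as did 16.2% of all probe sets. They belonged to 16 genes. Impact ranged from −0.78 with Erg to 0.90 with Gabpa, Mest from −1.54 with Bach1 to 0.29 with Erg, and Phlda2 from −0.55 with Gabpa to 0.73 with Erg. Mirg 1457030_at ranged from −0.24 with Zfp295 to 0.83 with Nrip1. The count was 8 without clone 1, 16 without clone 2 and 7 without clone 3 of every experiment, and 20 without the Erg experiment. Without the Gabpa experiment it was 22. Shares of all probe sets in these smaller fits are not given here, so the counts cannot be set against the 16.2%.

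The lists of related genes were described in the same fits. Of 53 probe sets of other imprinted genes, 10 rose and 4 fell with Erg, 3 rose with each of Nrip1, Pdxk and Olig2, and 1 rose and 2 fell with Aire. With Runx1, 3 of 36 rose and 3 fell. Ascl2, a maternally expressed transcription factor of the trophoblast in the Kcnq1 cluster, rose at all 3 probe sets with Erg (by 0.78 to 1.17), Olig2 (0.96 to 1.38) and Pdxk (0.64 to 0.82), and at 2 with Nrip1 (1.35 and 1.82). These 3 were also the only probe sets of the list to pass in the mean response, at 0.40 to 0.59 (adjusted p 0.023 to 0.034). Cdkn1c, the maternally expressed cell cycle inhibitor of that cluster, rose by 2.09 with Nrip1 (SE 0.16, adjusted p 0.026), 1.06 with Erg, 0.80 with Aire and 0.31 with Runx1. Tspan32 rose by 1.84 with Erg (SE 0.09).

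Of 75 probe sets of regulators that set or keep imprints, 9 rose and 9 fell with Erg, and 1 rose and 4 fell with Aire. With Runx1, 8 of 55 fell and none rose, and with Olig2 and Sim2 none of 75 passed. Ehmt2, a histone H3 lysine 9 methyltransferase, rose by 1.10 and 0.67 with Erg and fell by 1.17 and 1.29 with Runx1. Tet2, an enzyme that oxidises methylcytosine, fell by 1.45 and 1.27 with Erg, and Tet1 fell by 0.82 with Runx1. Among the DNA methyltransferases, Dnmt3b 1418351_a_at rose by 0.58 and Dnmt3a 1423066_at by 0.56 with Erg, and Dnmt3l fell by 0.39 with Runx1. Zfp57 1450929_at differed by 0.46 with Erg (SE 0.15, adjusted p 0.11) and by −0.43 with Runx1 (SE 0.20, adjusted p 0.20), and did not pass. Zfp57 and Trim28 were named here after their values were seen.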

How the data were processed

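Transcript levels in mouse ES cell clones were measured from oligo-dT-primed cDNA on Affymetrix arrays, 60 uninduced and 60 induced. The deposited log2 values were made by the authors with RMA (affy package, no version given in the sources used here), which subtracts background, quantile-normalizes the arrays and summarises probes. Each experiment was normalized apart, and probe sets were not filtered. The number of arrays limits the precision. All value columns were used (0 unused).

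Groups and replicate numbers came from the labels. Probe sets were named by the platform annotation: on Mouse 430_2, 34958 had 1 gene, 932 several and 9211 none (on Mouse 430A_2 20393, 691 and 1606). Among the imprinted probe sets, 8 and 5 had several genes (Snurf with Snrpn, Mir675 with H19, Airn with Igf2r) and were kept. A single probe set had no value in the Sim2 arrays.

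limma 3.58.1 (R 4.3.3) tested induced against uninduced with the clone as a block in each experiment. Over the Mouse 430_2 arrays it tested clones within experiments, the mean response of 19 experiments and the difference between their responses. Calls used a Benjamini-Hochberg adjusted p under 0.05 over all probe sets. Correlations used numpy 2.4.6 and scipy 1.17.1. The scripts were tested on simulated data. The pairing was checked by correlating deviations from group means between the 2 arrays of a clone, which exceeded 0.1 in all 3 pairs of 15 of 20 experiments (range −0.18 to 0.80), and the series describes the numbers as clones. The exceptions, Bach1, Gabpa, RIKEN-1810007M14, Hunk and Pfkl, had no call. In the Sim2 experiment, which had the Sgce call, 2 of 3 uninduced arrays correlated most with the induced array of their own number. This was 2 of 3 with Pfkl and 1 of 3 with Gabpa. With Sim2 clones 1 and 2 crossed, 0 of all probe sets passed.

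All members were named. Values by clone were given for at most the 25 largest changes that passed and went the same way in 3 clones, for the 10 members with the largest clone variance, and for those that passed in the mean response. At most 4 genes an experiment were named from the lists of regulators and other imprinted genes. Markers of ES cells, feeders, endoderm, mesoderm, trophoblast and neural progenitors were described by counts. Members and lists were chosen with earlier results of these data known. Alternatives were no block, the methods' unpaired test, other normalizations, dim probe sets left out, other moderation, and each clone or experiment left out.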

Additional observations from a re-analysis of the deposited data

Results flagged for a closer look

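For 14 genes the response to induction differed between the 19 experiments on Mouse 430_2 by limma's F-test on the probe set with the highest mean level, adjusted over all probe sets. The adjusted p was 6.12e-09 for Impact, 1.85e-08 for Mest, 1.07e-06 for Phlda2, 4.33e-05 for Mirg, 0.000854 for Zdbf2, 0.000948 for Sgce, 0.00276 for Igf2, 0.00332 for Peg3, 0.00686 for Kcnq1ot1, 0.0107 for Slc22a18 and for Meg3, 0.0161 for Ppp1r9a, 0.0314 for Nnat and 0.0372 for Ube3a. The Impact response was −0.78 with Erg and 0.90 with Gabpa. The Mest response was −1.54 with Bach1, where the other experiments reached 0.29. For Zdbf2 (0.73), Kcnq1ot1 (0.95), Nnat (1.22) and Ube3a (0.27) the highest difference was in the Gabpa experiment, in which 2 clones go against their numbers. For Igf2 (0.83) and Peg3 (0.97) it was in the Nrip1 experiment, where clone 2 rose most: Peg3 1433924_at went from 8.23 to 10.03 in it, from 7.69 to 8.30 in clone 1 and from 8.08 to 8.59 in clone 3.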

How the results depend on the processing

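No called value and no pair that passed changed direction under the alternatives tried. Pairs with r near 0 did change sign. Peg10 with Sgce went from −0.02 to 0.14 in the induced arrays, and Peg3 with Usp29 from −0.05 to 0.11 without the 2 farthest clones. Of the 44 called values, the unpaired test of the methods lost 37, the fit with no replicate block 11, leaving out clones 1, 2 and 3 lost 14, 11 and 16, a second quantile normalization and 1 fit over the Mouse 430_2 arrays 2 each (of 44 and 23), centring on the array median 1, and leaving out dim probe sets or using a mean trend with robust spread 0. For the pairing, the fits with no replicate block called 0 members with Aire, Olig2 and Sim2 and 0 for responses that differ between experiments, and changed no other count of member calls by over 1.5 times. With Aire, members passing were 0 by the methods' test, 1 after quantile normalization, 11 with a mean trend (6.42% of all), 1 in that fit and 0 to 7 without a clone. With Olig2 they were 0, 14 with a mean trend (4.72% of all) and 0 to 2 without a clone. With Sim2 they were 0 by the methods' test, 2 after quantile normalization, 0 when centred, 2 with a mean trend, 15 in that fit (11.6% of all), 0 with the pairing of clones 1 and 2 crossed, and 0 to 3 without a clone. By the methods' test 0 passed with Erg and 7 with Runx1. That fit called 1 member with Bach1 (0.0865% of all probe sets passed), 17 with Gabpa (8.69% of all), 15 with Nrip1 (4.71%), 6 with Pdxk (5.99%) and 5 with Pfkl (1.17%). A mean trend gave 6 with Nrip1 (0.650% of all) and 4 with Hunk (0.129%), and centring 1 with Nrip1 (0.368%). Without a clone the counts were 0 to 1 with Bach1, 0 to 10 with Gabpa, 0 to 7 with Hunk and 0 to 21 with Pdxk; the highest of each had 0.0111%, 4.34%, 0.594% and 11.1% of all probe sets passing. The cause was not tested. Responses that differ between experiments numbered 7 to 16 without a clone and 20 to 31 without an experiment, where fewer arrays enter. Clone differences numbered 43 to 61 in these and other settings. For both kinds of count the share of all probe sets in each setting is not given here. Treating the 57 clone differences as separate, which takes clones of 1 experiment as independent, gave 16 members with a mean response, also without that share. Of the 4 related pairs, only Rian with Mirg passed without the 2 farthest clones. In the induced arrays only Meg3 with Mirg of these 4 passed (adjusted permutation p 0.0023), and Rian with Mirg did not (adjusted permutation p 0.057). Phlda2 with Slc22a18, not among the 4, passed there (adjusted permutation p 0.026). With the mean over all probe sets of a gene, Rian with Mirg did not pass (adjusted permutation p 0.070), and the rest of the 4 did. Meg3 with Dlk1 and Phlda2 with Slc22a18 then passed as well (adjusted permutation p 0.0052 and 0.029). Apart pairs of an imprinted probe set and a clone, by alternatives chosen after seeing the data, numbered 126 at a gap of 0.5 and 21 at 1.5. Over all probe sets there were 16513 and 952. Signal over background limits the probe sets of Asb4, Nap1l5, Peg12 and Usp29.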

Other observations

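Leaving aside Gabpa clones 1 and 3, Eif2s3y, a Y-linked gene, was at 2.38 to 6.34 in the uninduced arrays of 10 clones from 9 experiments and at 8.24 to 9.69 in those of the other clones. Clones 2 and 3 of the Dyrk1a experiment were among the low ones (5.07 and 4.34). Dyrk1a clone 1, which was apart at 7 imprinted probe sets, was at 8.70.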
